A study of Mus musculus with 51 samples.

Results

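Cytosolic sulfotransferases are soluble enzymes that move a sulfate group onto small hydroxylated molecules. The members described are Sult1a1, Sult1b1, Sult1c2, Sult1d1, Sult1e1, Sult5a1 and 2810007J24Rik, the older symbol of Sult2a8. They were listed by name with earlier results of these data known, so counts of called members describe this list only. Of these 7 genes, 6 have a row among the 33773 gene symbols of the expression matrix, all 6 passed the filter on low values in hepatocytes and in liver, and Sult5a1 was not analysed here. RNA was sequenced from 15 mouse hepatocyte libraries and 6 mouse liver libraries. The study removed the FoxA transcription factors from adult hepatocytes and compared their RNA with that of controls. In the 4 triple null libraries, mice that were FoxA1L/L, FoxA2 L/L and FoxA3-/- had received, at 8 weeks of age, adeno-associated virus 8 carrying Cre recombinase under the thyroid-binding globulin (Tbg) promoter, which is active in hepatocytes. The 4 FoxA3 null libraries are their controls, which per the design text carried the same alleles and received virus expressing GFP, so both of these groups lack FoxA3. The 3 FoxA1/A2 lox libraries (lox below) have no deletion, and the 4 FoxA1/A2 Cre alfp libraries (Cre alfp below) have FoxA1 and FoxA2 deleted with FoxA3 present. The alfp driver is known as a Cre transgene under albumin and alpha-fetoprotein regulatory sequences that is active from the fetal liver onward, whereas the virus acted in adults. The liver libraries are 2 HNF4a controls and 4 labelled HNF4a null, which the design text describes as adult depletion. The labels state neither the sex of the mice nor whether each library came from a separate animal, so p-values measure the spread between these libraries only.

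Sulfation makes hormones, neurotransmitters, bile acids and drugs more soluble in water and usually ends their action, and liver is a main site of it. The sulfate comes from the donor PAPS, which PAPS synthases make from inorganic sulfate and ATP. SULT1E1 is the estrogen sulfotransferase, scarce in adult mouse liver. SULT1A1 acts on small phenols, SULT1D1 on dopamine and other catecholamines, SULT1B1 on thyroid hormones, and SULT2A8 on bile acids. Several of these genes differ between male and female mice.

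In the RefSeq gene table, Sult1b1, Sult1d1 and Sult1e1 stand next to each other on chromosome 5, on the minus strand, with no other gene between them. Their promoters are shown because these neighbours did not move together: the first of them fell and the others rose in the triple null. Each line gives the 250 bases before the RefSeq transcription start, 5′ to 3′, from the GRCm38.p6 table, in which all 7 members were found. Sult1e1 lies at chr5:87591612-87591861, Sult1d1 at chr5:87569007-87569256 and Sult1b1, for the more upstream of its 2 listed starts, at chr5:87538196-87538445. Capitals mark the single match to a forkhead motif, the letter pattern that FoxA factors bind.
Sult1e1: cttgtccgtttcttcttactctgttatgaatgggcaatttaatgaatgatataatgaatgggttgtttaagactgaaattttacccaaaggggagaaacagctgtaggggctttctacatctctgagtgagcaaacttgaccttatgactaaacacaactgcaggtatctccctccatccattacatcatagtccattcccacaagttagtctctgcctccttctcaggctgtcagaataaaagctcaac
Sult1d1: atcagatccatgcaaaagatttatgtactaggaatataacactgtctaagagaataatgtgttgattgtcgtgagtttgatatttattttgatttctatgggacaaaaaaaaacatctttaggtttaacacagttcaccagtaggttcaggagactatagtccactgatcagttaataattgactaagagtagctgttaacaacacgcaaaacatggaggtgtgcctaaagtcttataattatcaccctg
Sult1b1: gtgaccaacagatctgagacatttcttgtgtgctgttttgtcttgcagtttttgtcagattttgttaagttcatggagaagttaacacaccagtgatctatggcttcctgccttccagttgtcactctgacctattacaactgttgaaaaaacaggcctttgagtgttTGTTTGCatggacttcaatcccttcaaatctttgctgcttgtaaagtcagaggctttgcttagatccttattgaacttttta
The forkhead letters searched on both strands were TGTTTAC (found in 3.17% of windows of this length), TATTTAC (found in 2.73%), TGTTTGC (found in 4.3%) and TATTTGC (found in 2.5%). At least 1 of these 4 was held by 11.9% of the 32851 RefSeq windows. Among the 6 measured members, Sult1b1 held TGTTTGC at 82 to 76 bases before its start. The other 5 held none of these letters in this window. The HNF4a letters CAAAGTCCA, found in 0.384% of windows, were in none of the 6. A match is a stretch of letters and not a site shown to be bound.

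The values are the authors' RPKM, read number scaled to gene length and to sequencing depth, so levels can be compared between genes. The targeted genes were examined first. Foxa3 averaged 0.00449 RPKM in FoxA3 null, 0.00444 in the triple null, and by contrast 25.0 in lox and 31.1 in Cre alfp. Foxa2 was 13.7 ± 4.58 RPKM in FoxA3 null against 0.366 ± 0.103 after deletion in the triple null (SD, n = 4 each), and Foxa1 was 8.50 ± 1.85 and 3.28 ± 0.283. In Cre alfp, Foxa1 was 1.24 and Foxa2 1.09 RPKM. Hnf4a went against its label, at 487 to 545 RPKM in the 4 so labelled libraries and at 118 to 126 in the 2 HNF4a controls. Directions for that group are therefore those of the HNF4a null label. All 21 libraries expressed the Y-linked genes Ddx3y, at 14.9 to 32.9 RPKM, and Eif2s3y, with Xist at most at 0.363 RPKM. Absolute depth is unknown, and relative depth ran from 1 to 4.07, lowest in the liver libraries, whose low values are therefore the least precise. The hepatocyte markers Alb, Ttr, Apoa1 and 7 others summed to at least 16034 RPKM in every library. In these bulk samples, fewer cells of a type and less RNA per cell cannot be told apart.

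Sult1e1 RNA, which encodes the estrogen sulfotransferase, was nearly undetected in lox hepatocytes and had the highest mean of the 6 members in the triple null, where it led in 3 of 4 libraries and Sult1d1 led in replicate 4 (811 against 786 RPKM). Its level was 0.163, 0.102 and 0.156 RPKM in the lox libraries and 2.46, 3.49, 6.37 and 4.84 RPKM in the FoxA3 null libraries. In Cre alfp it was 28.2, 18.6, 6.51 and 12.1 RPKM, and in the triple null 1411, 1007, 1289 and 786 RPKM. These 4 hepatocyte groups did not overlap, and every triple null library stood far above all others. In liver it was 0.133 and 0.0678 RPKM in the controls and rose to 19.9, 11.1, 8.39 and 10.2 RPKM under the HNF4a null label. In the order of the means, the triple null came first, followed by Cre alfp and HNF4a null, which overlapped, by FoxA3 null, and by lox and HNF4a control, which overlapped.

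Sult1d1, for the catecholamine sulfotransferase, was already abundant without any deletion and rose in the triple null. Its level was 77.6, 59.2 and 85.8 RPKM in lox, 102, 87.7, 103 and 106 in FoxA3 null, and 150, 125, 113 and 194 in Cre alfp. The triple null libraries were at 483, 727, 745 and 811 RPKM. Replicate 1 was the lowest of them, yet above every library of the other groups. In liver, the controls were at 82.0 and 71.5 RPKM and the libraries labelled HNF4a null at 310, 218, 202 and 238 RPKM, with no overlap. Among neighbours in the order, HNF4a control and lox overlapped.

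Sult1a1, for the phenol sulfotransferase, was called higher in the triple null and lower under the HNF4a null label in liver. It was 174, 133 and 165 RPKM in lox, 92.7, 80.0, 116 and 122 in FoxA3 null, and 424, 337, 286 and 432 in Cre alfp. The triple null libraries were at 663, 639, 888 and 622 RPKM. None of the hepatocyte groups overlapped. The liver controls were at 76.2 and 77.5 RPKM, while those labelled HNF4a null were at 15.9, 12.8, 12.4 and 21.97 RPKM, all below the controls.

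Of the members that were lower in the triple null, 2810007J24Rik, for the bile acid sulfotransferase SULT2A8, was the leading member in every lox, FoxA3 null and HNF4a control library. Its level was 368, 367 and 428 RPKM in lox, 484, 439, 457 and 394 in FoxA3 null, and 314, 243, 221 and 403 in Cre alfp. It was 29.9, 17.8, 48.1 and 47.9 RPKM in the triple null. The triple null lay below all other hepatocyte libraries, and the remaining 3 hepatocyte groups overlapped with their neighbours. The liver controls were at 582 and 580 RPKM, against 0.663, 2.16, 1.60 and 0.935 RPKM under the HNF4a null label.

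Sult1b1, for the thyroid hormone sulfotransferase, was 10.1, 9.37 and 14.6 RPKM in lox, 12.5, 10.9, 8.40 and 11.1 in FoxA3 null, and 11.7, 9.78, 9.31 and 14.2 in Cre alfp. The triple null libraries were at 2.05, 1.67, 2.54 and 2.32 RPKM, below these 3 groups, which overlapped one another. The liver controls were at 17.0 and 11.99 RPKM, and under the HNF4a null label Sult1b1 was listed at 0.00299, 0.146, 0.0713 and 0.00311 RPKM. Sult1c2 was the scarcest member on average in FoxA3 null, Cre alfp and the triple null. It was 0.399, 0.390 and 2.15 RPKM in lox, 2.14, 2.14, 2.32 and 2.14 in FoxA3 null, 1.64, 1.54, 1.18 and 2.12 in Cre alfp, and 0.378, 1.05, 1.18 and 0.816 in the triple null. In lox, replicate 3 stood apart from the other libraries. The liver controls were at 2.70 and 3.11 RPKM and the libraries labelled HNF4a null at 6.33, 2.91, 5.85 and 6.77 RPKM, and these groups overlapped.

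**Figure D1:**
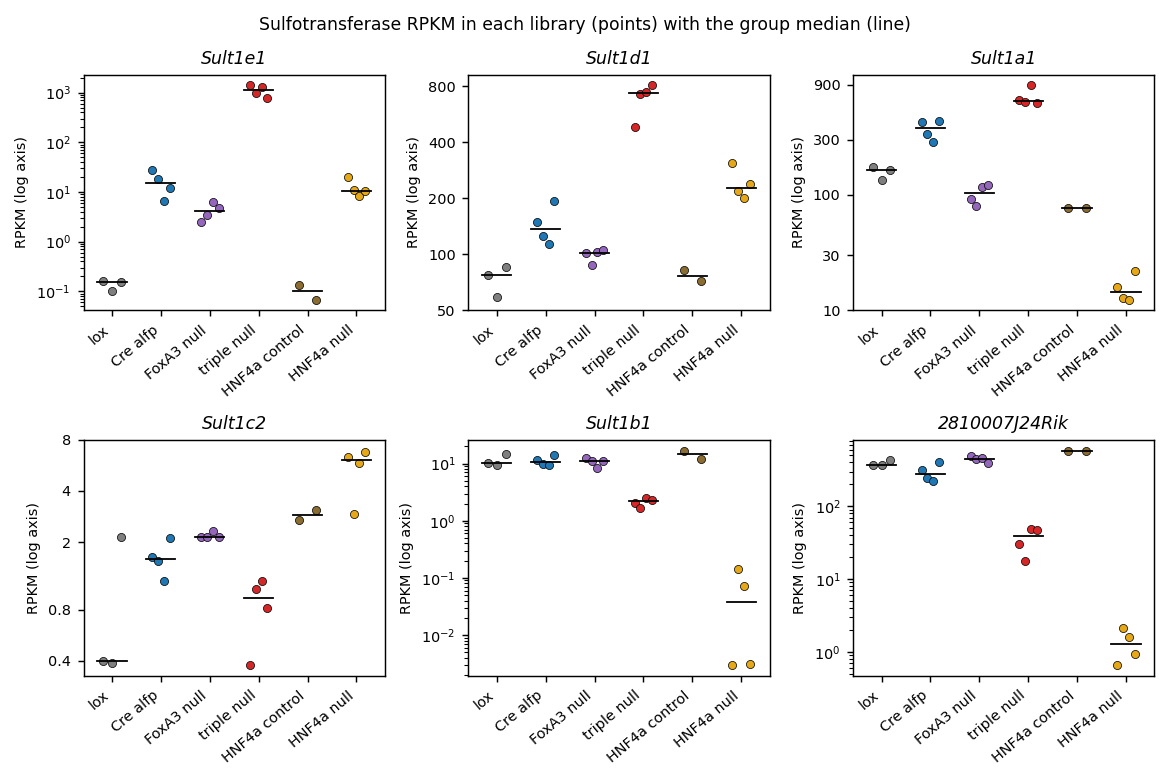
RPKM (log axis, with a different range in each panel) of the 6 measured sulfotransferase genes in the 21 libraries. Each point is 1 library and each line the median of its group; HNF4a null and HNF4a control are liver, the other groups hepatocytes. Sult1e1 in the triple null lies between 786 and 1411 RPKM, with no other library above 28.2.

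The RPKM of the 6 members were added within each library to describe the make-up of the group. The sum was 632 ± 63.6 RPKM in lox (SD, n = 3), 663 ± 37.1 in FoxA3 null, 840 ± 189 in Cre alfp and 2557 ± 307 in the triple null (n = 4 each). In liver it was 752 ± 11.2 RPKM for HNF4a control (n = 2) and 277 ± 54.2 under the HNF4a null label (n = 4). The lowest triple null library, at 2271 RPKM, was above the highest of all others, at 1058 RPKM in Cre alfp.

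The leading gene differed between groups. 2810007J24Rik made up 61.4% ± 3.03 of the sum in lox, 66.9% ± 4.03 in FoxA3 null and 77.3% ± 0.950 in HNF4a control. In Cre alfp, Sult1a1 led with 44.3% ± 2.32, and 2810007J24Rik held 34.9% ± 2.24. In the triple null, Sult1e1 held 43.6% ± 8.19 (34.6% in replicate 4, where Sult1d1 held 35.7%), Sult1d1 27.5% ± 7.31, Sult1a1 27.4% ± 1.80 and 2810007J24Rik 1.41% ± 0.589. In the libraries labelled HNF4a null, Sult1d1 held 87.4% ± 1.17 and 2810007J24Rik 0.523% ± 0.316. Both members known for bile acids or thyroid hormones, 2810007J24Rik and Sult1b1, thus had a smaller share in the triple null and under the HNF4a null label, and the gene that took the leading place was not the same in each. The 6 members accounted for 93.8% to 99.9% of the RPKM of all sulfotransferase symbols of this superfamily listed in the matrix.

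**Figure D2:**
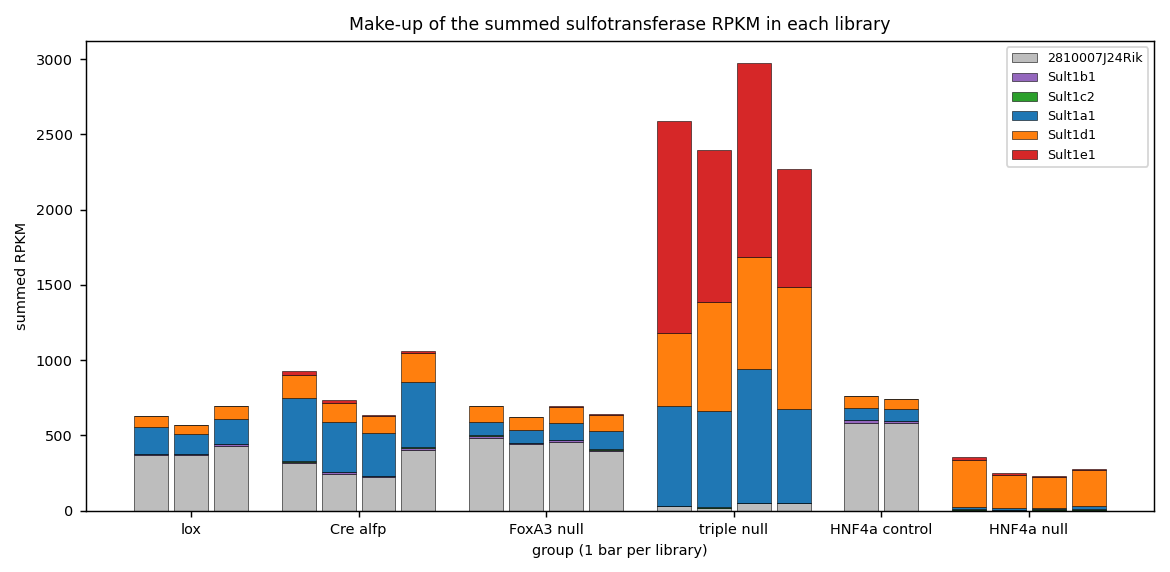
Summed RPKM of the 6 measured sulfotransferase genes, 1 bar per library, coloured by gene and starting at 0. The 4 triple null bars reach 2271 to 2974 RPKM and consist almost wholly of Sult1e1, Sult1d1 and Sult1a1, whereas 2810007J24Rik is the largest segment in lox, FoxA3 null and HNF4a control.

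Loss of FoxA1 and FoxA2 in adult, FoxA3-deficient hepatocytes was the first comparison tested. Differences are on the log2(RPKM + 1) scale, which understates the change of genes with low levels, and a gene was called when its adjusted p was under 0.05 with an absolute difference of at least 1. In the triple null against FoxA3 null, 5 of 6 members were called, 3 higher and 2 lower, while 8.11% of the 11500 tested genes were called, 4.17% higher and 3.95% lower. Sult1e1 rose by 7.75 (SE 0.34, limma adjusted p 9.48e-10), the largest rise of all tested genes, and its mean RPKM was 262-fold higher. Sult1a1 rose by 2.77 (SE 0.17, adjusted p 4.13e-08), a 6.86-fold ratio of means, and Sult1d1 by 2.76 (SE 0.19, adjusted p 8.84e-08), a 6.96-fold ratio. The members that fell were 2810007J24Rik, by 3.69 (SE 0.26, adjusted p 1.55e-07, 12.3-fold lower), and Sult1b1, by 1.90 (SE 0.17, adjusted p 1.19e-06, 5.01-fold lower). Sult1c2 differed by -0.80 (SE 0.23, adjusted p 0.0177), short of the minimum difference. The libraries of these groups did not overlap for any of the 6, which was so for 27.9% of all tested genes. In the authors' deposited table the log2 fold change is 7.97 for Sult1e1, 2.84 for Sult1d1, 2.71 for Sult1a1, -2.37 for Sult1b1 and -3.64 for 2810007J24Rik. For Sult1c2 the authors' deposited table gives -1.45 with an adjusted p of 7.92e-07, a larger fall than on the scale used here.

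Several other gene groups moved in the same comparison, and their part in these results was not tested. The 10 hepatocyte markers summed to 54557 to 59919 RPKM in FoxA3 null but only 22211 to 29868 after the deletion, with 6 of 10 called lower. Of the 5 neutrophil and monocyte markers, 2 could be tested, S100a8 and S100a9, and both were called higher, with sums of 9.42 to 110 RPKM against 0.786 to 2.02. The 8 markers of sinusoidal endothelium summed to 8.16 to 16.9 RPKM against 30.99 to 47.8. Of 3 tested stellate and fibroblast markers, 2 were called lower, Colec11 and Reln, and of 3 tested erythroid markers 2 were called higher, Hba-a1 and Hbb-b1, and 1 lower, Alas2. The 5 erythroid markers summed to 5.94 to 21.7 RPKM in the triple null against 33.0 to 47.3 in FoxA3 null. Of 19 acute phase genes, 8 were called higher and 4 lower, among them Lcn2, which went from 21.4 to 742 RPKM. Of 11 tested genes known to be higher in male liver, 6 were called lower and 2 higher; Hsd3b5 went from 143 to 1.21 RPKM. Of 12 tested genes known to be higher in female liver, 5 were called higher by limma and 0 lower (0 also at an unadjusted p under 0.05); Cyp17a1 went from 4.93 to 118 RPKM. Of the 4 tested sex chromosome genes, limma called 0, and 0 had an unadjusted p under 0.05.

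With FoxA3 present, fewer sulfotransferases passed the test. In Cre alfp against lox, 2 of 6 members were called, both higher, against 2.38% of all tested genes (1.29% higher and 1.1% lower). Sult1e1 rose by 3.76 (SE 0.37, limma adjusted p 3.39e-05), from a mean of 0.140 to 16.3 RPKM, a 116-fold ratio with a denominator near 0, and by 5.91 with a pseudocount of 0.1. Sult1e1 was at most 0.163 RPKM in lox, so against lox it could only be called higher. Its call is included in the 2 and describes levels only. Sult1a1 rose by 1.21 (SE 0.19, adjusted p 0.00162), a 2.34-fold ratio. Sult1d1 differed by 0.95 (adjusted p 0.0145), just under the minimum difference. Libraries did not overlap for 3 of 6 members, Sult1e1, Sult1a1 and Sult1d1, and for 19.9% of all genes. Leaving out lox replicate 3, Cre alfp replicate 2 or Cre alfp replicate 3 took Sult1d1 past the minimum, at 1.06, 1.01 and 1.06. For the members that fell in the triple null, the 95% interval of the difference was -0.39 to 0.38 for Sult1b1 and -1.04 to 0.18 for 2810007J24Rik. Sult1c2 differed by 0.51 (adjusted p 0.301). Here limma called 0 of 10 hepatocyte markers, with 3 at an unadjusted p under 0.05, and among the tested sex-biased genes 4 of 11 male ones were called lower and 5 of 12 female ones higher. Of 3 tested erythroid markers, Alas2 was called lower and Hbb-b1 higher, and the 5 markers summed to 14.9 to 29.2 RPKM in Cre alfp against 81.3 to 90.8 in lox. Of 3 tested cholangiocyte markers, Spp1 was called lower. The part of these markers in the sulfotransferase differences was not tested.

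The difference between these effects was tested as an interaction, the change from FoxA3 null to triple null minus the change from lox to Cre alfp. All 6 members were called, 3 with a higher and 3 with a lower value, where 6.82% of tested genes were called, 3.28% higher and 3.54% lower. The interaction was 4.00 for Sult1e1 (SE 0.51, limma adjusted p 0.000149), 1.81 for Sult1d1 (SE 0.28, adjusted p 0.00068) and 1.56 for Sult1a1 (SE 0.26, adjusted p 0.00122). It was -3.26 for 2810007J24Rik (SE 0.39, adjusted p 8.67e-05), -1.89 for Sult1b1 (SE 0.24, adjusted p 0.000172) and -1.31 for Sult1c2 (SE 0.34, adjusted p 0.0198). Without lox replicate 1 or lox replicate 2 the Sult1c2 interaction was -1.11 in each case and was not called (adjusted p 0.0624 and 0.0585). With a pseudocount of 0.1 in place of 1, the Sult1e1 interaction was 2.14 (limma adjusted p 0.0214) and that of Sult1c2 -2.39 (adjusted p 0.0222). Sult1e1 was near 0 RPKM in lox, so the size of its interaction depends on the pseudocount. The FoxA3 genotype and the way of deletion, by virus in adults or by a transgene, cannot be told apart in this contrast. Markers moved in it too: 5 of 10 hepatocyte markers were called lower, and S100a8 and S100a9 higher. Egfl7, Kdr, Colec11, Reln and Alas2 were called lower. Of 19 acute phase genes, 8 were called higher and 1 lower. Their part in the interaction of the members was not tested.

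**Figure D3:**
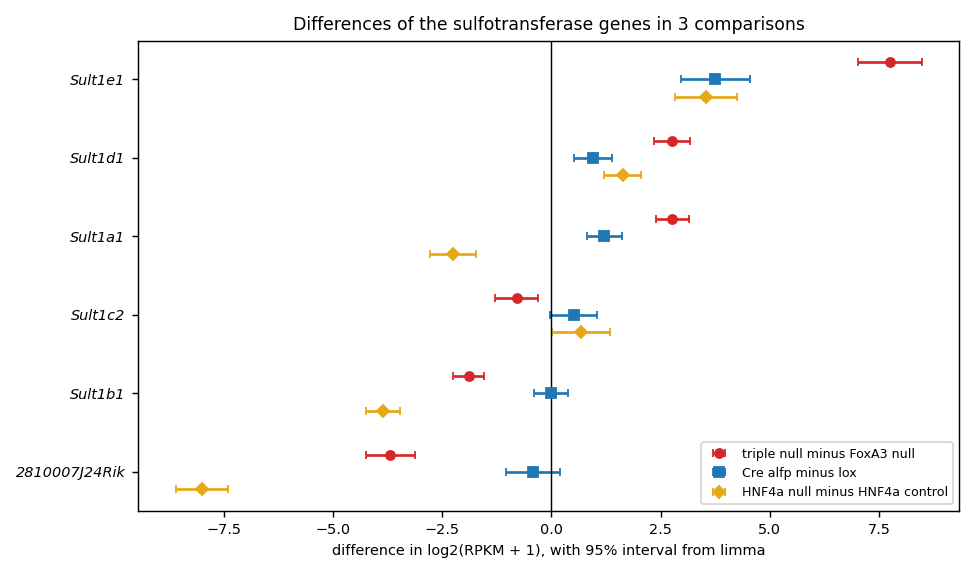
Difference in log2(RPKM + 1) for the 6 measured sulfotransferase genes in 3 comparisons, with 95% intervals from limma; the vertical line marks 0 and the median of all genes was not subtracted. Sult1e1 lies to the right in all 3, and 2810007J24Rik lies at -3.69 in triple null minus FoxA3 null with an interval that spans 0 in Cre alfp minus lox. In lox and HNF4a control Sult1e1 was near 0 RPKM, so against these groups it could only be called higher.

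Comparisons across the FoxA3 genotypes share groups with those above. Besides FoxA3 genotype, the triple null differs from Cre alfp in the way of deletion and from lox in having a deletion at all. These differences cannot be told apart from that of FoxA3 genotype. The labels name no library batch, so its part was not tested. The median of all tested genes was shifted by 0.13 in triple null against lox, by 0.13 against Cre alfp and by 0.10 in FoxA3 null against lox. Values are given relative to it, whereas calls and p-values are those of the difference before this shift was taken off. Against lox, the triple null had 5 of 6 members called, 3 higher and 2 lower (13.5% of all genes, 7.72% higher and 5.81% lower): Sult1e1 at 9.78, Sult1d1 at 3.06, Sult1a1 at 2.01, Sult1b1 at -2.09 and 2810007J24Rik at -3.63. The same 5 did not overlap, as for 46.3% of all genes. Sult1e1 was at most 0.163 RPKM in lox, so in comparisons with lox it could only be called higher. Its calls against lox describe levels only. Against Cre alfp, 4 of 6 were called, 2 in each direction (10.3% of all genes, 5.26% higher and 5.03% lower): Sult1e1 at 6.03, Sult1d1 at 2.12, Sult1b1 at -2.08 and 2810007J24Rik at -3.19. All 6 had libraries that did not overlap, as had 39.6% of all genes. Sult1a1 differed from Cre alfp by 0.81, or 0.93 before the shift was taken off (SE 0.17, limma adjusted p 0.000879), and was not called; leaving out Cre alfp replicate 1 or replicate 4 moved the latter value to 1.00 and 1.01, which was called. In FoxA3 null against lox, 1 of 6 members was called (7.19% of all genes, 3.63% higher and 3.56% lower), Sult1e1 at 2.05, or 2.16 before the shift was taken off (adjusted p 0.00123; 4.12 with a pseudocount of 0.1), and without lox replicate 3 a second, Sult1c2, was called at 1.19 before the shift was taken off (adjusted p 0.000719). The authors' deposited table for the triple null against a control with no deletion, whose header gives no direction and whose signs run opposite to the RPKM for these genes, gives after turning the sign 12.8 for Sult1e1, 2.75 for Sult1d1, 1.96 for Sult1a1, -0.42 for Sult1c2 and -2.63 for Sult1b1. Against Cre alfp the authors' deposited table gives 5.91 for Sult1e1, 1.78 for Sult1d1, 0.73 for Sult1a1, -2.57 for Sult1b1, and -1.15 for Sult1c2 (unadjusted p 0.000236), which was not called here. The authors list no value for 2810007J24Rik against Cre alfp or against the control with no deletion. In FoxA3 null against lox, 3 of 6 members, Sult1e1, Sult1d1 and Sult1a1, did not overlap, against 40.1% of all genes. Markers moved in these comparisons too, and their part in the results was not tested. Against lox, 6 of 10 hepatocyte markers and 5 of 7 tested markers of sinusoidal endothelium were called lower in the triple null, and against Cre alfp 5 of 10 and 6 of 7. S100a8 and S100a9 were called higher in both. Of the erythroid markers, Alas2 was called lower in both, and Hba-a1 and Hbb-b1 were called higher against lox. The cholangiocyte marker Sox9 was called lower against lox and the stellate marker Colec11 lower against Cre alfp. In FoxA3 null against lox, Stab1, Sox9 and Alas2 were called lower.

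In liver, the group labelled HNF4a null differed from its controls in 5 of 6 members, 2 higher and 3 lower, against 14.5% of 12434 tested genes (8.58% higher and 5.95% lower). The median of all genes was shifted by 0.34 toward the HNF4a null libraries. Values are given relative to it, whereas calls and p-values are those of the difference before this shift was taken off. 2810007J24Rik stood at -8.34 (limma adjusted p 2.91e-06), its mean 434-fold lower. Sult1b1 stood at -4.19 (adjusted p 9.26e-06) with 2 of 4 libraries listed at 0.00299 and 0.00311 RPKM, so its 259-fold ratio rests on values near 0. Sult1a1 stood at -2.59 (adjusted p 0.000382), 4.88-fold lower. Sult1e1 rose, at 3.20 (adjusted p 0.000214) and a 124-fold ratio over controls near 0, and Sult1d1 rose, at 1.29 (adjusted p 0.000595) and a 3.15-fold ratio. In liver, Sult1e1 reached 1 RPKM only under the HNF4a null label and Sult1b1 only in the controls. Each passed the filter through its higher group only, so the filter set the direction of these calls. They are included in the 5 and describe levels only. With a pseudocount of 0.1, and before the shift was taken off, Sult1e1 stood at 5.91 and Sult1b1 at -6.63, against 3.54 and -3.86 with 1. Sult1c2 stood at 0.35, or 0.68 before the shift was taken off (adjusted p 0.0789), and it was the member whose libraries overlapped; the other 5 did not, as for 67% of all genes. The authors' deposited table gives -8.99 for 2810007J24Rik, -8.43 for Sult1b1, -2.65 for Sult1a1, 6.17 for Sult1e1, 1.23 for Sult1d1 and 0.50 for Sult1c2.

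In the same liver libraries, the 8 cholangiocyte markers summed to 120 to 218 RPKM in those labelled HNF4a null and 17.4 to 18.4 in the controls, and the hepatocyte markers to 16034 to 17747 against 33028 to 33046. Both tested neutrophil and monocyte markers, S100a8 and S100a9, were called higher, and the 5 markers summed to 3.79 to 15.9 RPKM against 1.47 to 2.11. Of 9 tested Kupffer and macrophage markers, Marco was called higher, and of 3 tested erythroid markers Alas2 was called lower. The summed markers were also higher under the HNF4a null label, with no overlap, for sinusoidal endothelium (198 to 214 against 143 to 168 RPKM), stellate cells and fibroblasts (132 to 151 against 106 to 119), Kupffer cells and macrophages (137 to 163 against 109 to 115) and lymphocytes (4.05 to 6.19 against 3.15 to 3.30). These sums are before the all-gene shift of 0.34 was taken off, and 67% of all genes did not overlap either. Relative to all genes, the median differences of the tested markers were -0.03, 0.04, -0.06 and 0.08, in that order. Of 19 acute phase genes, 5 were called higher and 5 lower. All 11 tested male-biased genes were called lower, and of 10 tested female-biased genes 8 were called higher and 1 lower. Their part in the sulfotransferase differences was not tested.

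The supply of the sulfate donor was described with 15 genes for sulfate import, PAPS synthesis and sulfur oxidation. In the triple null against FoxA3 null, 1 of 12 tested was called higher, 1 lower and 10 were not called, with a median difference of 0.09 against 0.05 for all genes. Of all tested genes, 8.11% were called in that comparison and 14.5% in liver. Papss2, a PAPS synthase, rose by 1.67 (SE 0.26, limma adjusted p 0.000279), from 51.8 to 170 RPKM, and also by 1.31 in Cre alfp against lox (adjusted p 0.0149). In FoxA3 null against lox it rose by 1.05 before the shift of 0.10 was taken off (limma adjusted p 0.0123). The other PAPS synthase, Papss1, differed by 0.26 in the triple null against FoxA3 null (adjusted p 0.18). Slc26a1, the sulfate transporter of the hepatocyte membrane, fell by 3.70 (SE 0.22, adjusted p 1.78e-08), from 34.4 to 1.66 RPKM. In liver, limma called 0 of 13 tested genes higher (5 at an unadjusted p under 0.05) and 3 lower, namely Slc26a1, at -3.74 relative to all genes, the persulfide dioxygenase Ethe1 at -2.65 and the cysteine dioxygenase Cdo1 at -2.52.

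Enzymes that add or remove sulfate elsewhere in the cell were counted next. For comparison, 8.11% of all tested genes were called in the triple null against FoxA3 null and 14.5% in liver. Counts of 1 in 10 are near these shares. Of 9 tested Golgi sulfotransferases, 2 were called higher and 3 lower in the triple null against FoxA3 null. Gal3st1, which sulfates galactosylceramide, rose by 1.96, Tpst1, which sulfates tyrosines of secreted proteins, fell by 2.39, and Ndst1, of heparan sulfate synthesis, fell by 1.45. Of 10 tested sulfatases, 1 was called, the arylsulfatase Arsa, which fell by 1.81 (SE 0.17, limma adjusted p 2.49e-06). In liver, 1 of 10 Golgi enzymes was called, Gal3st1 at -1.89 relative to all genes, and 2 of 10 sulfatases were called higher, Sulf2 at 2.15 and Arsb at 0.82 (1.16 before the shift was taken off).

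Genes of estrogen and steroid handling were described because estrogens are substrates of SULT1E1. The share of all genes called was 8.11% in the triple null against FoxA3 null, 2.38% in Cre alfp against lox and 14.5% in liver. Of 15 tested, 2 were called higher, 4 lower and 9 were not called in the triple null against FoxA3 null, with a median of 0.11. Srd5a1, a steroid reductase, fell by 2.85, Hsd17b6, a hydroxysteroid dehydrogenase, by 2.54 and Akr1c6, an estradiol dehydrogenase, by 2.43. In Cre alfp against lox limma called 0 of 15, with 3 at an unadjusted p under 0.05. In liver, 1 of 15 was called higher, Hsd17b6 at 0.72 (1.05 before the shift was taken off), and 2 lower, Hsd17b2, which turns estradiol into estrone, at -2.69 and Hsd17b7 at -2.37, all relative to all genes. Of 17 tested receptors and factors known to control sulfotransferase genes, 2 were called higher and 3 lower in liver, among them the nuclear receptors Nr1i3 at -5.14 and Ppara at -2.52 relative to all genes. In the triple null against FoxA3 null, 1 of these 17 was called higher and 16 were not called. In Cre alfp against lox, 1 was called, Nr1i3, and it was higher. Of 16 tested enzymes of other conjugation reactions, 4 were called higher and 1 lower in the triple null, with the glutathione transferases Gstt3 and Gstt1 rising by 3.18 and 1.81 and the methyltransferase Nnmt by 2.71. In liver, 1 of 15 tested enzymes of this list was called higher and 7 lower, with a median of -1.22 relative to all genes.

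The remaining cytosolic sulfotransferases of the superfamily were scarce, and 6 of 14 could be tested in hepatocytes. In the triple null against FoxA3 null, limma called 3 higher, with a median of 1.30. These were Sult2a2 at 2.71, Sult2a6 at 1.62 and Sult2a3 at 1.39. In Cre alfp against lox, 3 were called higher: Sult2a2 at 3.44, Sult2a1 at 2.60 and Sult3a1 at 2.44. Sult2a1, Sult2a2, Sult2a3, Sult2a6 and Sult3a1 reached 1 RPKM in hepatocytes only in Cre alfp or triple null libraries. They passed the filter only through those groups, so against lox or FoxA3 null they could only be called higher. The calls therefore describe where these genes were present and are no test of direction. Sult2a2 was 1.76 to 11.1 RPKM in the triple null, 2.83 to 37.2 in Cre alfp and at most 0.0775 in lox and FoxA3 null. Sult2a1 was 0.856 to 14.9 RPKM in Cre alfp and 0.489 to 2.40 in the triple null. The Sult2a genes other than 2810007J24Rik are related in sequence, and how alike they are was not measured here. Reads may have been split between some of them, so their separate values are uncertain.

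Sult3a1 was high in Cre alfp, at 4.43, 5.73, 3.35 and 4.45 RPKM, and at most 0.0389 RPKM in lox, FoxA3 null and triple null libraries. It passed the filter only through the Cre alfp libraries. Its interaction of -2.47 (SE 0.17) therefore restates its level there and is no separate result. In liver it was 0.402 and 0.0139 RPKM in the controls and 0.430, 1.00, 0.656 and 0.706 under the HNF4a null label, too low to be tested.

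**Figure D4:**
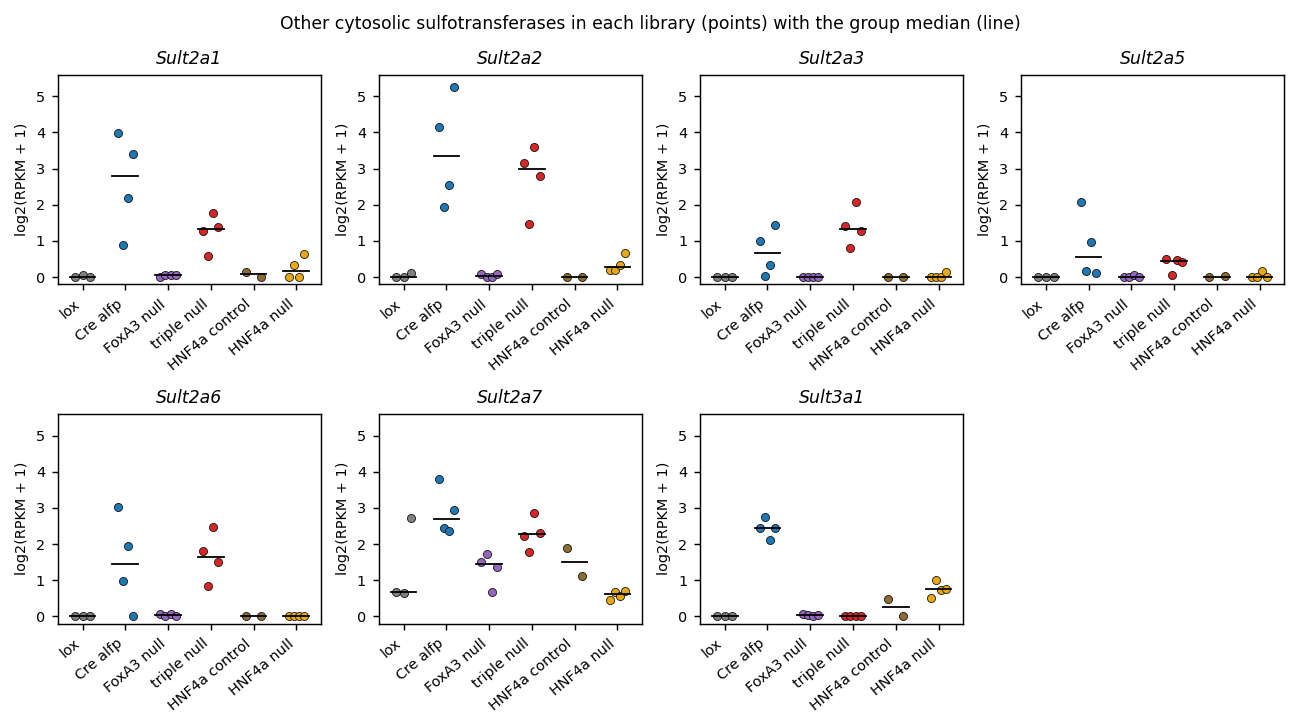
log2(RPKM + 1) of 7 other sulfotransferase genes in the 21 libraries, with 1 point per library and a line at each group median. Sult3a1 is above 2 on this scale in the 4 Cre alfp libraries and at about 1 or lower in all others. Sult2a2 is higher in Cre alfp and triple null libraries than in lox and FoxA3 null libraries.

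The genes whose pattern over the 15 hepatocyte libraries was most like that of a member were found by Pearson's r of log2(RPKM + 1), given as a description since the libraries fall into 4 groups and share the normalization. Those nearest to Sult1e1 were Nrn1 at 0.982, Gm2a at 0.978, Nid1 at 0.978, Cyp17a1 at 0.976 and Gstt1 at 0.975. Nrn1 was also nearest to Sult1d1, at 0.982, followed by Akr1e1 at 0.981. Nearest to Sult1a1 were Tmem71 at 0.962 and Gm16246 at 0.960, and nearest to Sult1c2 were Fgfrl1 at 0.899 and Hebp1 at 0.896. Nearest to Sult1b1 was Ces1c at 0.978, and nearest to 2810007J24Rik were Plg at 0.986 and Lcat at 0.978. Among the members, Sult1d1 and Sult1e1 correlated at 0.97 and Sult1b1 and 2810007J24Rik at 0.97, while Sult1e1 and 2810007J24Rik correlated at -0.93.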

How the data were processed

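The matrix of RPKM values was made and deposited by the authors, who name Cufflinks 2.2.1, SAMtools, DESeq2 and the mouse build mm9, per the submitters' processing notes; which tool made which file is not given in the sources used here. Of its columns, 21 matched a library or group by name and 9 were not used. The authors also deposited tables of log2 fold changes with p-values, quoted as theirs. No 2 libraries were identical (highest r 0.98). Differences were fitted with limma 3.58.1 (trend) in R 4.3.3 on log2(RPKM + 1), with 1 fit over 15 hepatocyte libraries (RPKM of at least 1 in at least 3) and 1 over 6 liver libraries (at least 2), and Benjamini-Hochberg adjustment over all tested genes. No count model was used, since no counts were read. The code was tested on simulated data. Members and gene lists were chosen with earlier results of these data known. Per list, at most the 3 called genes with the largest difference were named, plus every other sulfotransferase at 1 RPKM or more in a group; some genes the rule selects are not reported here. Replicate numbers did not pair libraries: same-numbered triple null and FoxA3 null libraries correlated at -0.13, -0.04, -0.36 and 0.02. Alternatives were the pseudocount, the filter, the scaling, the minimum difference, the replicate block, the libraries fitted and leaving out each library. HNF4a peaks were not used, because the reference table is of another build. Promoters are RefSeq's, GRCm38.p6.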

Additional observations from a re-analysis of the deposited data

Results flagged for a closer look

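Among 24 sets of 4 libraries, 1 for each member and group, 2 had a library far from the others by Dixon's criterion, where chance gives about 1 in 20. Sult1a1 was at 888 RPKM in triple null replicate 3, and Sult1c2 was at 2.32 RPKM in FoxA3 null replicate 3, apart from 3 libraries at 2.14 RPKM. The effect of the FoxA1 and FoxA2 deletion differed between mice without and with FoxA3 for 6 of 6 members by limma's interaction term, which called 6.82% of all tested genes, at 4.00 for Sult1e1, 1.81 for Sult1d1, 1.56 for Sult1a1, -1.31 for Sult1c2, -1.89 for Sult1b1 and -3.26 for 2810007J24Rik on the log2(RPKM + 1) scale. With a pseudocount of 0.1 the Sult1e1 value was 2.14 (limma adjusted p 0.0214) and the Sult1c2 value -2.39 (adjusted p 0.0222). The size of the Sult1e1 value depends on the pseudocount because lox lies near 0 RPKM. The Sult1c2 call was lost without lox replicate 1 or lox replicate 2 (adjusted p 0.0624 and 0.0585) and with no filter on low values (adjusted p 0.0534). The way of deletion differs along with the FoxA3 genotype, and these cannot be told apart.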

How the results depend on the processing

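Over the alternatives tried, 638 values kept their direction and their side of the threshold, 13 became called, 3 lost the call and 10 changed sign, all of the last uncalled. Members called in FoxA3 null against lox went from 1 to 2 with a pseudocount of 0.1 and to 3 with no minimum difference. Leaving out 1 library gave 1 to 2 there, 5 to 5 for the triple null against either FoxA3 null or lox, 4 to 5 against Cre alfp and in liver, 2 to 3 in Cre alfp against lox and 5 to 6 for the interaction. The summed RPKM of HNF4a control went from 752 to 858 with median scaling. The sign of some differences near 0 changed when 1 library was left out: Sult1b1 ranged from -0.12 to 0.17 in Cre alfp against lox (positive without lox replicate 3 or Cre alfp replicate 2 or 3), from -0.18 to 0.12 in FoxA3 null against lox (positive without replicate 3 of either group), and Sult1c2 from -0.20 to 0.39 in triple null against lox (positive without lox replicate 3 or triple null replicate 1 or 4). That Sult1c2 value was also 0.13 with a pseudocount of 0.1 and 0.025 with quantile normalization; the cause was not tested. With no filter the Sult1c2 interaction lost its call (adjusted p 0.0534). With a pseudocount of 0.1 the interaction was 2.14 for Sult1e1 and -2.39 for Sult1c2, both still called, and Sult1c2 was called for FoxA3 null both against lox (1.48) and as the control of the triple null (-1.35). With the replicate block, 5 members were called in triple null against FoxA3 null, as without it, and the other hepatocyte comparisons also kept their counts; the libraries share only a number. No block could be fitted in liver, whose columns carry barcodes, and leaving out 1 of 2 liver controls assumes that the other varies like the remaining libraries. In those 2 fits Sult1b1 was not tested, having RPKM of 1 in fewer than 2 libraries. The alternatives named for HNF4a peaks and proteins were not run. Depth is lowest in liver, which limits Sult1b1 there.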

Other observations

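The authors' deposited tables also compare development, with libraries and tests not stated. The share of all genes that differ in these tables was not computed. In the authors' deposited table of hepatoblasts against adult hepatocytes, the log2 fold change was -8.67 for Sult1d1, -8.29 for 2810007J24Rik, -5.55 for Sult1b1, -5.38 for Sult1a1 and -3.48 for Sult1c2. Sult1e1 stood at 0.67 there with an adjusted p of 0.653. In the authors' deposited table of newborn against adult hepatocytes, 2810007J24Rik stood at -4.22, Sult1d1 at -1.52 and Sult1b1 at -1.43, Sult1c2 at 3.09 (adjusted p 0.00263), and Sult1a1 and Sult1e1 at -0.23 and -1.96 with adjusted p of 0.154 and 0.198. The same newborn table of the authors, deposited with the series, lists Sult2a1 at 9.95 and Sult2a6 at 9.37. In the authors' deposited table of triple null against hepatoblast, Sult1e1 stood at 11.93, Sult1d1 at 11.38 and Sult1a1 at 7.34, and also the members that fell in the triple null were higher than in hepatoblasts, 2810007J24Rik at 4.57 and Sult1b1 at 2.91.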
